A study of Mus musculus with 12 samples.

Results

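Co-stimulatory and checkpoint genes encode surface proteins through which an antigen-presenting cell steers a T cell. The 9 genes described here, out of 19938 tested, were Cd40, Cd80, Cd86, Cd274, Pdcd1lg2, Icosl, Tnfsf9, Tnfsf4 and Havcr2. They were chosen by gene symbol. Earlier results of these data were known when they and the gene lists used below were chosen. The array holds 10 probe sets annotated to these symbols alone, and the brightest one of a gene on average over the 12 arrays was used. Most of the 9 encode ligands, whereas Cd40 and Havcr2 encode receptors. Expression was measured on Affymetrix arrays in cells sorted from the skin of untreated B6 wild-type SPF mice. The 4 groups, with 3 arrays each, were MHC-II-positive melanophages, MHC-II-negative melanophages, MHC-II-positive macrophages and MHC-II-negative macrophages. Melanophages are macrophages filled with melanin. All 4 groups shared a gate that took CD11b-positive and CD64-positive cells and left out cells positive for CD24, CCR2 or Ly6C, and melanophages were sorted as high in side scatter. For macrophages the sample titles and the phenotype field disagree on side scatter, so side scatter was not used here. The labels do not say whether a group's arrays stem from different mice, so the p-values measure the spread between these arrays alone, and that spread may be technical.

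A T cell that meets peptide on MHC-II reads further signals from the presenting cell. CD80 and CD86, of the B7 family, bind the activating receptor CD28 and the inhibitory receptor CTLA-4, and ICOS ligand binds ICOS. PD-L1 (Cd274) and PD-L2 (Pdcd1lg2) bind the inhibitory receptor PD-1. The TNF family ligands 4-1BBL (Tnfsf9) and OX40L (Tnfsf4) bind 4-1BB and OX40 on activated T cells. CD40 works in the other direction: T cells trigger it with CD40 ligand, and it signals through TRAF adaptors to NF-kB, a family of transcription factors that induces co-stimulatory genes. TIM-3 (Havcr2) is an inhibitory receptor of T cells that myeloid cells carry too.

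Values are log2 expression, and differences are log2 differences with standard errors (SE) from 1 limma fit over all genes and arrays. A gene was called when its p, adjusted after Benjamini and Hochberg over all 19938 genes, was under 0.05. As a guide to what the arrays could detect, the off level was set at 3.12, the 95th percentile of the values of 1194 olfactory and vomeronasal receptor genes. Of the 9 genes, 6 lay above it on every array. Pdcd1lg2 lay above it on 11 arrays, Icosl on 2 and Tnfsf4 on 0 of 12. The brightness of a probe set depends on its sequence, so no gene's level is set against another's.

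2 macrophage arrays stood farther from their group mates than the others did. These were MHC-II-negative macrophage replicate 1 and MHC-II-positive macrophage replicate 3, whose differences from their group mates had an SD over genes of 0.41 and 0.36. On the other 10 arrays that SD lay between 0.24 and 0.31. The sort was visible in H2-Eb1, a chain of MHC-II, which averaged 9.70 in MHC-II-positive and 5.64 in MHC-II-negative melanophages, and 10.33 in MHC-II-positive and 6.41 in MHC-II-negative macrophages. All 10 macrophage markers measured were above the off level in every group. Averaged over cell kind, 1 of them, Aif1, was called higher in MHC-II-positive cells in limma and 0 lower, with 5 differences positive and 5 negative. Aif1 averaged 8.68 in MHC-II-positive and 8.25 in MHC-II-negative melanophages, and 8.80 and 8.32 in the macrophages. Of 7 melanocyte markers Dct, Tyr and Sox10 were above the off level on 0 of 12 arrays and Mitf on 12, and of 4 B cell markers Cd79a and Ms4a1 were above it on 0 and Cd79b on 12. None of these 11 markers was called between the MHC-II classes in limma, where 1 melanocyte marker and 0 B cell markers had an unadjusted p under 0.05. Of 7 markers of T cells and innate lymphoid cells, Cd3d, Cd3g and Cd5 were above the off level on 0 of 12 arrays and Cd3e on 8. Cd3e averaged 3.299 in MHC-II-positive and 3.228 in MHC-II-negative melanophages, and 3.502 and 3.219 in the macrophages. Of the 7 markers, 2 were called higher in MHC-II-positive cells and 0 lower. These were Il7r, a chain of the interleukin-7 receptor (1.94 ± 0.25, limma adjusted p = 0.00406), and Cd2, an adhesion receptor (1.37 ± 0.13, limma adjusted p = 0.000454). The summed linear level of the 7 ranged from 490.7 to 547.7 in MHC-II-positive and from 235.7 to 315.3 in MHC-II-negative melanophages, and from 414.8 to 913.8 in MHC-II-positive and from 128 to 153.8 in MHC-II-negative macrophages. Il7r had the highest mean of the 7 in every group, so that sum mostly follows Il7r. Averaged over cell kind, 5 of the 7 differences were positive and 2 negative. Thy1 averaged 3.252 in MHC-II-positive and 3.505 in MHC-II-negative melanophages, and 3.44 and 4.43 in the macrophages. Of 4 monocyte markers 1 was called: MHC-II-positive cells exceeded MHC-II-negative cells 9.40-fold in Ccr2 (3.23 ± 0.20, limma adjusted p = 3.9e-05), although the gate of every group was CCR2-negative. The summed level of the 4 ranged from 120.4 to 201.8 in MHC-II-positive and from 30.16 to 36.08 in MHC-II-negative melanophages, and from 123 to 288 in MHC-II-positive and from 32.94 to 47.63 in MHC-II-negative macrophages, and Plac8 was above the off level on 0 of 12 arrays. Ccr2 itself had the highest mean of the 4 in every group, and of the 4 differences 3 were positive and 1 negative. Of 6 mast cell markers 0 were called between the MHC-II classes, and all 6 differences were negative. Their summed level ranged from 68.95 to 109.8 in MHC-II-positive and from 160.2 to 229.3 in MHC-II-negative macrophages, and overlapped in melanophages. Of the neutrophil, keratinocyte, fibroblast and endothelial markers 0 were called. Mcpt4 and Cpa3 of mast cells, S100a8 of neutrophils and Dcn of fibroblasts were above the off level on 12 arrays. In sorted cells measured in bulk, fewer cells of a type and less RNA per cell cannot be told apart.

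Averaged over melanophages and macrophages, 2 of the 9 genes, Cd40 and Pdcd1lg2, were called higher in MHC-II-positive cells, relative to MHC-II-negative cells, and 0 were called lower. Over all genes this comparison called 0.762%, with 0.632% higher and 0.13% lower. The median difference of the 9 genes was 0.64, against -0.02 over all genes tested, and all 9 differences were positive. Among these, Tnfsf4 was above the off level on 0 of 12 arrays and Icosl on 2. The difference of Cd86 was 0.02 and changed sign in 6 of 26 alternative settings of the processing. At an unadjusted p under 0.05, 6 of the 9 passed, against 9.23% of all genes. Of all genes, 49.5% had a mean above the off level. Shares and medians over all genes, here and below, therefore include many genes near or under that level. The 4 beside Cd40 and Pdcd1lg2 were Cd274, Cd80, Tnfsf9 and Havcr2, and none of these had an adjusted p under 0.05.

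**Figure D1:**
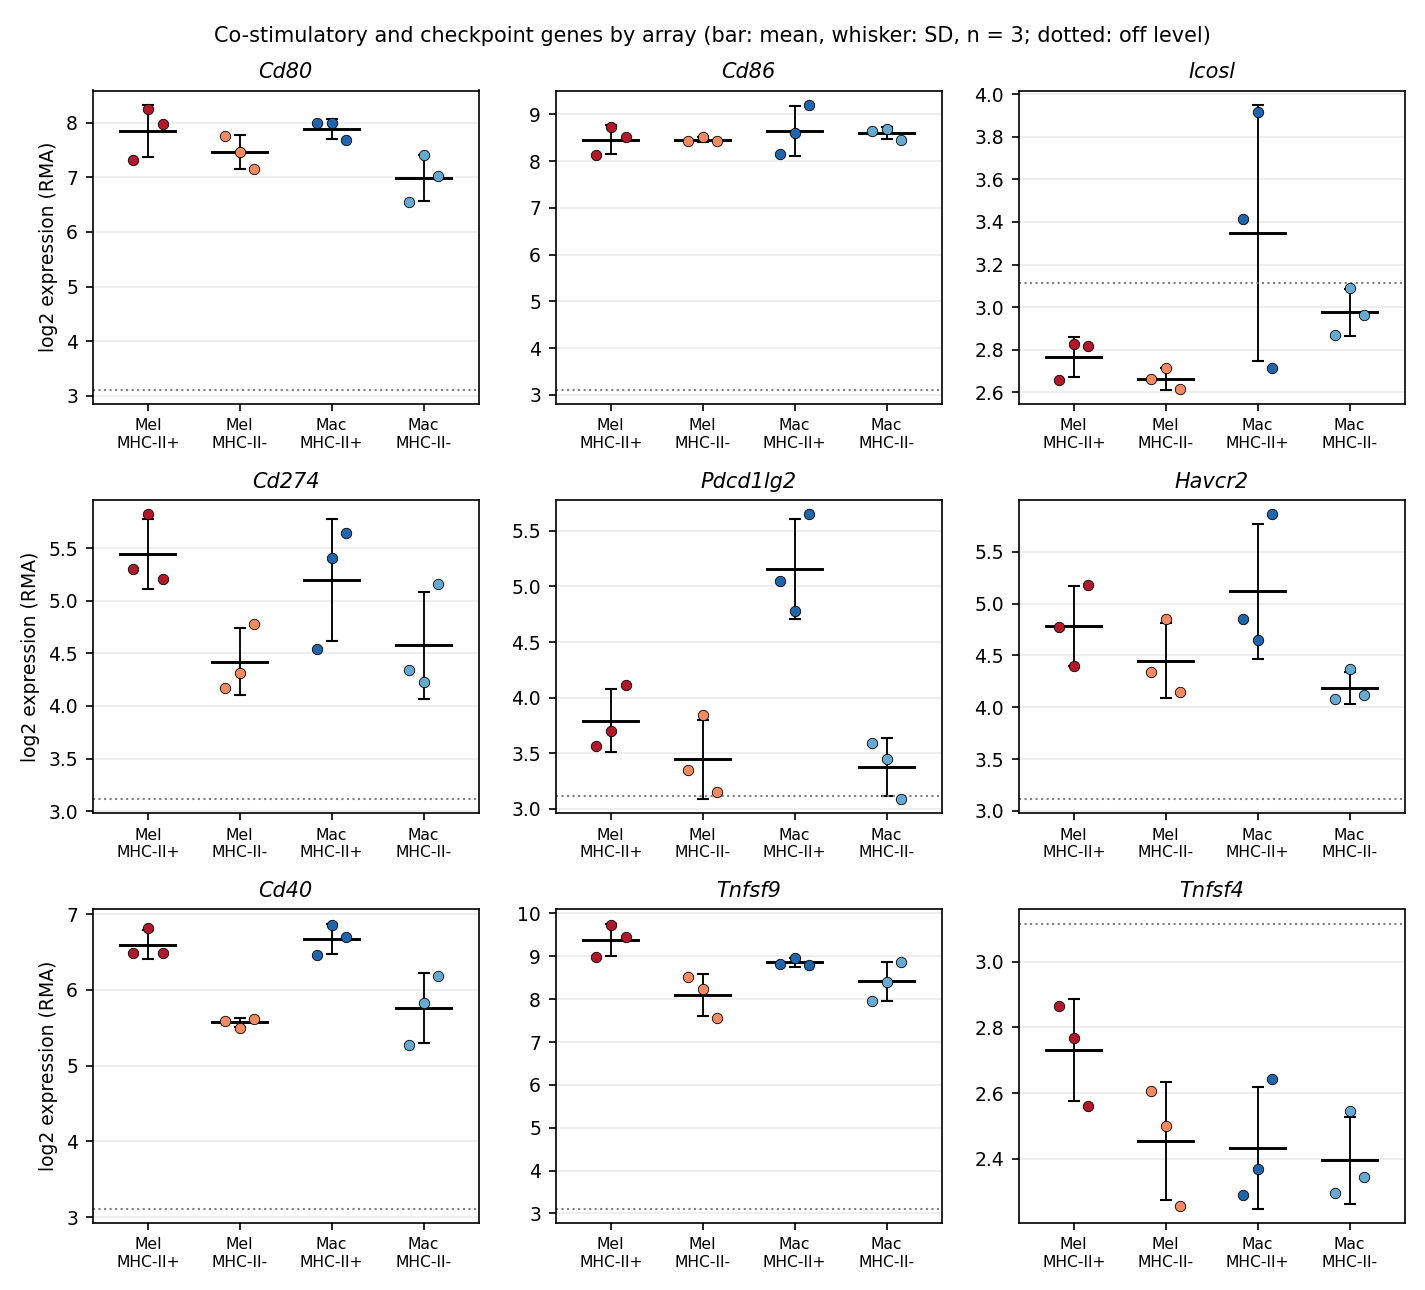
Log2 expression of the 9 genes on each array, with 1 panel per gene; points are arrays, bars are group means, whiskers are SDs (n = 3) and the dotted line is the off level of 3.12. Cd40 separates the MHC-II classes in both cell kinds, Pdcd1lg2 stands high in MHC-II-positive macrophages, and every Tnfsf4 point lies under the off level; the axis range differs between panels.

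Cd40 separated the MHC-II classes in both cell kinds. MHC-II-positive melanophages had Cd40 values of 6.49, 6.82 and 6.48, compared with 5.59, 5.50 and 5.62 in MHC-II-negative melanophages. In macrophages the values were 6.46, 6.86 and 6.70 in MHC-II-positive cells, against 5.28, 5.83 and 6.19 in MHC-II-negative cells. All 6 MHC-II-positive arrays were higher than all 6 MHC-II-negative arrays, and in this comparison 1.11% of all genes showed that pattern. Cd40 was 1.95-fold higher on average (0.97 ± 0.14, limma adjusted p = 0.0100). Within melanophages alone the difference was 1.03 ± 0.20 (adjusted p = 0.121), and within macrophages it was 0.91 ± 0.20 (adjusted p = 0.125), and neither passed. The call within melanophages was gained in 6 alternatives, such as those leaving out MHC-II-negative macrophage replicate 1 (limma adjusted p = 0.0176) or replicate 3 (0.0494), and that within macrophages without replicate 3 of the MHC-II-negative macrophages (1.12, limma adjusted p = 0.0461). The macrophage difference of Cd40 was 0.66 to 1.12 with 1 array left out and 0.65 without both far arrays (limma adjusted p = 0.253), and its adjusted p reached 0.487 over the alternatives. Melanophages minus macrophages came to -0.13 in Cd40 with a 95% interval from -0.45 to 0.18, averaged over MHC-II class. Without both far macrophage arrays, an alternative chosen after seeing the data, averaged Cd40 differed between the MHC-II classes by 0.84 (limma adjusted p = 0.0152).

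The B7 ligands Cd80 and Cd86, which share the receptors CD28 and CTLA-4, were not called between the MHC-II classes. MHC-II-positive melanophages had Cd80 values of 7.31, 8.25 and 7.98, compared with 7.76, 7.47 and 7.14 in MHC-II-negative melanophages, and these ranges overlapped. In MHC-II-positive macrophages it stood at 7.99, 7.99 and 7.68, above its values of 6.56, 7.40 and 7.02 in MHC-II-negative macrophages. Averaged over cell kind, Cd80 differed by 0.64 ± 0.19 (limma adjusted p = 0.249). The gene has a second probe set, whose group means were ordered in the same direction (6.02 in MHC-II-positive and 5.62 in MHC-II-negative melanophages, 6.12 in MHC-II-positive and 5.34 in MHC-II-negative macrophages). Across the 12 arrays the second probe set correlated with the first at r = 0.301, and with the mean of both Cd80 passed the threshold (0.61, limma adjusted p = 0.0349).

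Cd86 had the smaller averaged difference. MHC-II-positive melanophages had Cd86 values of 8.12, 8.72 and 8.52, compared with 8.43, 8.52 and 8.42 in MHC-II-negative melanophages. In macrophages it was measured at 8.15, 8.59 and 9.20 in MHC-II-positive cells, against 8.64, 8.69 and 8.46 in MHC-II-negative cells. The groups overlapped throughout, and every array was far above the off level. The averaged MHC-II difference of Cd86 was 0.02 ± 0.16 with a 95% interval from -0.34 to 0.39 (limma adjusted p = 0.978), which leaves room for a change of either sign up to that size. The difference between Cd80 and Cd86 was not tested as such.

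The 3 promoters shown next were chosen from those the promoter table holds, and Cd40 has no entry there. Cd274 and Pdcd1lg2 are neighbours on chromosome 19, with 1 gene and 0 protein-coding genes between them in the RefSeq table. For Cd80 the averaged MHC-II difference was estimated at 0.64 and for Cd86 at 0.02, and these were not tested against each other. Of the 3, Pdcd1lg2 alone was called in any comparison. Each is the 250 bases before the start that RefSeq's promoter table gives on assembly GRCm38.p6, written 5′ to 3′ on the plus strand. For Cd274 and Cd80 that start lies inside the gene as RefSeq's gene table spans it, downstream of the gene's outermost start, whose own window was not searched. Capitals mark matches, on either strand, to an NF-kB motif (GGGA, any 4 bases, CC) or an AP-1 motif (TGANTCA).
Cd274, chr19:29367188-29367437: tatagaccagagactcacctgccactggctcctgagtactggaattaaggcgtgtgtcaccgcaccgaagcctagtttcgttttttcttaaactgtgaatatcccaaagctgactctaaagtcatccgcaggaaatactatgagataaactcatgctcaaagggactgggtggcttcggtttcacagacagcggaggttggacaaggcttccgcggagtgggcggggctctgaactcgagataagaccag
Pdcd1lg2, chr19:29410669-29410918: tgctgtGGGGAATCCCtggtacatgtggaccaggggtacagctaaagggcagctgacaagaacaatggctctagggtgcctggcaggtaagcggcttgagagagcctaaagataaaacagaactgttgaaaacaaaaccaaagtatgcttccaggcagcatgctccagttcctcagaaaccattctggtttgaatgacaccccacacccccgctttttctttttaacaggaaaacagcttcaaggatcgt
Cd80, chr16:38458683-38458932: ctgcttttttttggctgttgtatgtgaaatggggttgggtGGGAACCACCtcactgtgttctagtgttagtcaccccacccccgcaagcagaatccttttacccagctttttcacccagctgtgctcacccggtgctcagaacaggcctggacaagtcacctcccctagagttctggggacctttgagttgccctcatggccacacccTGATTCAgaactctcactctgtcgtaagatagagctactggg
The Pdcd1lg2 window held 1 NF-kB match, 244 to 235 bases before the start. The Cd80 window held 1 NF-kB match, 210 to 201 bases before the start, and 1 AP-1 match, 42 to 36 bases before it. The Cd274 window held 0 matches to these motifs or to the IRF (GAAA, any 2 bases, GAAA) and STAT (TTCNNNGAA) motifs searched beside them. Of 32851 promoters in the table, 17.6% held the NF-kB motif, 6.75% the AP-1 motif, 7.02% the STAT motif and 2.98% the IRF motif, so a match here is a description of the letters. Promoters were in the table for 5 of the 9 genes. The other two with an entry were Icosl, with 1 NF-kB match 71 to 62 bases before the start, and Havcr2, with 1 AP-1 match 200 to 194 bases before it.

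Of the 4 groups, Pdcd1lg2, which encodes PD-L2, was highest in MHC-II-positive macrophages. Pdcd1lg2 was measured at 5.05, 4.78 and 5.65 there, against 3.59, 3.45 and 3.09 in MHC-II-negative macrophages. MHC-II-positive melanophages had Pdcd1lg2 values of 3.56, 3.70 and 4.11, and MHC-II-negative melanophages had 3.35, 3.84 and 3.15. The 3 MHC-II-positive macrophage arrays stood above all 9 other arrays, which lay near the off level, and the melanophage classes overlapped. Within macrophages Pdcd1lg2 was 3.44-fold higher in MHC-II-positive cells (1.78 ± 0.25, limma adjusted p = 0.012). It was the only one of the 9 genes called in that comparison, which called 0.341% of all genes. Within melanophages the difference was 0.35 ± 0.25 (limma adjusted p = 0.961). Averaged over cell kind Pdcd1lg2 was 2.09-fold higher in MHC-II-positive cells (1.07 ± 0.18, limma adjusted p = 0.0227).

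MHC-II-positive melanophages were below MHC-II-positive macrophages in Pdcd1lg2 on every array, with a difference of -1.37 ± 0.25 that missed the threshold (limma adjusted p = 0.179). Of all genes, 4.91% were lower without overlap in that comparison. The MHC-II difference in melanophages minus that in macrophages was -1.44 ± 0.36, with an unadjusted p of 0.0022 in limma and an adjusted p of 0.9996, and 4.11% of all genes had an unadjusted p under 0.05 for that interaction. The larger Pdcd1lg2 step in macrophages is therefore not shown to differ from the one in melanophages after adjustment over all genes. Without both far macrophage arrays the step within macrophages was 1.65 (limma adjusted p = 0.0392). The call within macrophages was lost when those 2 groups were fitted alone (limma adjusted p = 0.108) and without MHC-II-negative macrophage replicate 2 (0.0505) or replicate 3 (0.0623). The averaged call was lost when any 1 of 6 arrays was left out, with adjusted p between 0.0548 and 0.0679: replicates 2 and 3 of the MHC-II-positive melanophages, 1 and 3 of the MHC-II-negative melanophages, and 2 and 3 of the MHC-II-negative macrophages.

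Cd274, which encodes PD-L1, separated the MHC-II classes in melanophages. MHC-II-positive melanophages had Cd274 values of 5.31, 5.82 and 5.20, compared with 4.17, 4.31 and 4.78 in MHC-II-negative melanophages, with no overlap. In macrophages it was measured at 4.54, 5.40 and 5.65 in MHC-II-positive cells, against 4.34, 4.23 and 5.16 in MHC-II-negative cells, and these ranges overlapped. The difference was 1.02 ± 0.33 within melanophages (limma adjusted p = 0.551) and 0.62 ± 0.33 within macrophages (limma adjusted p = 0.697). The Cd274 difference within macrophages was 0.28 without both far arrays and 0.40 to 0.95 with 1 array left out. Averaged over cell kind it was 0.82 ± 0.23 (limma adjusted p = 0.213), so the Cd274 difference did not pass in any of the 3 comparisons. Unlike the order for Pdcd1lg2, MHC-II-positive melanophages had the highest mean Cd274 value, 0.25 above MHC-II-positive macrophages, but with a 95% interval from -0.47 to 0.97, and the order turned without replicate 1 of the MHC-II-positive macrophages (-0.0814).

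**Figure D2:**
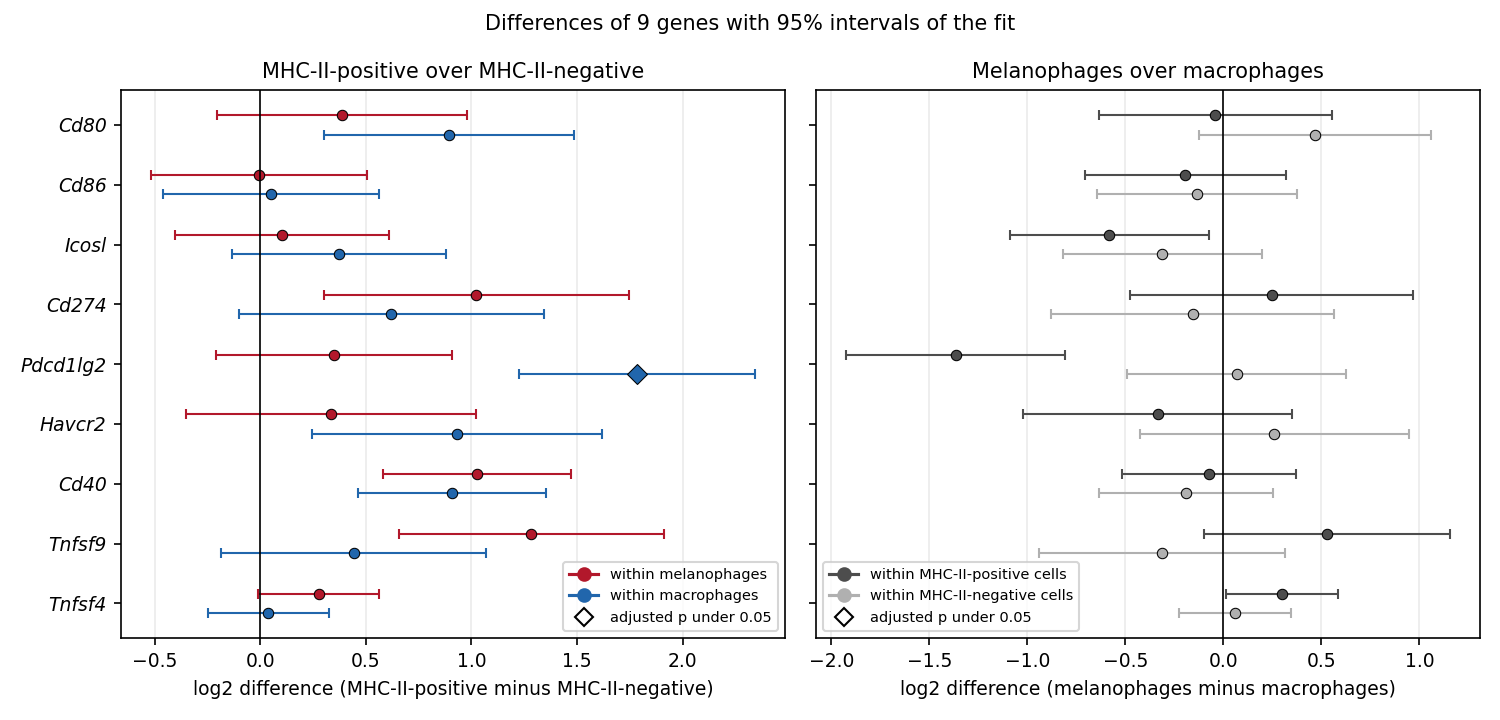
Log2 differences of the 9 genes from the limma fit, with 95% intervals; the left panel gives MHC-II-positive minus MHC-II-negative cells within each cell kind, the right panel melanophages minus macrophages within each MHC-II class, and a diamond marks an adjusted p under 0.05. Pdcd1lg2 within macrophages (1.78) is the only diamond, and in the right panel Pdcd1lg2 in MHC-II-positive cells (-1.37) lies farthest from 0.

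Tnfsf9, which encodes 4-1BBL, was higher in MHC-II-positive melanophages, relative to MHC-II-negative ones, on every array. MHC-II-positive melanophages had Tnfsf9 values of 8.98, 9.72 and 9.46, compared with 8.51, 8.24 and 7.55 in MHC-II-negative melanophages. In macrophages it was measured at 8.81, 8.97 and 8.79 in MHC-II-positive cells, against 7.96, 8.41 and 8.87 in MHC-II-negative cells, and replicate 3 of the MHC-II-negative macrophages fell within the MHC-II-positive range. The difference was 1.28 ± 0.28 within melanophages (limma adjusted p = 0.191), 0.44 within macrophages (0.757) and 0.86 ± 0.20 averaged over both (0.110). MHC-II-positive melanophages were above MHC-II-positive macrophages without overlap, by 0.53 with a 95% interval from -0.10 to 1.15, and 7.51% of all genes were higher without overlap in that comparison. Within macrophages the Tnfsf9 difference was 0.25 without both far arrays and 0.22 to 0.67 with 1 array left out. The interaction was 0.84 ± 0.40 (unadjusted p = 0.061 in limma), so the larger step of Tnfsf9 in melanophages is not shown to differ from that in macrophages.

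Havcr2, which encodes TIM-3, separated the MHC-II classes in macrophages. Values of 4.85, 4.65 and 5.86 were measured in MHC-II-positive macrophages, against 4.08, 4.37 and 4.12 in MHC-II-negative macrophages. In melanophages it was measured at 4.77, 4.40 and 5.18 in MHC-II-positive cells, against 4.34, 4.85 and 4.15 in MHC-II-negative cells, with overlap. The macrophage difference was 0.93 ± 0.31 (limma adjusted p = 0.422) and rested in part on replicate 3 of the MHC-II-positive macrophages, 1 of the far arrays. Without both far arrays it was 0.51 (limma adjusted p = 0.696). Averaged over cell kind Havcr2 differed by 0.63 ± 0.22 (limma adjusted p = 0.364).

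The ICOS ligand gene Icosl and the OX40L gene Tnfsf4 were at the edge of detection. Icosl was measured at 3.41, 3.92 and 2.71 in MHC-II-positive macrophages, and the first 2 of these were the only arrays above the off level. The other 9 arrays lay between 2.61 and 3.09. MHC-II-negative melanophages were below MHC-II-negative macrophages in Icosl without overlap, a pattern of 3.91% of all genes, but both lay under the off level. Without both far macrophage arrays Icosl was called lower in melanophages, with both MHC-II classes averaged (-0.63, limma adjusted p = 0.0407). Tnfsf4 lay between 2.56 and 2.87 in MHC-II-positive melanophages and between 2.26 and 2.61 in MHC-II-negative melanophages. It lay between 2.29 and 2.64 in MHC-II-positive macrophages and between 2.30 and 2.55 in MHC-II-negative macrophages. Tnfsf4 was therefore not detectable in these cells with this probe set, and no difference is read from it.

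Within melanophages 0 of the 9 genes were called between the MHC-II classes, a comparison that called 0.211% of all genes. At an unadjusted p under 0.05 in limma 3 passed (Cd40, Cd274 and Tnfsf9), against 5.70% of all genes, and the same 3 did not overlap, against 5.12% of all genes that were higher without overlap. Within macrophages 4 genes passed at an unadjusted p under 0.05 in limma (Cd40, Cd80, Pdcd1lg2 and Havcr2), against 7.83% of all genes, and those 4 did not overlap, against 4.96% of all genes. Of the 9 genes, Cd40 alone separated the classes in both cell kinds. The interaction, which tests whether the MHC-II difference is unequal between the cell kinds, called 0 of the 9 genes and 0 of all genes in limma, and 1 of the 9, Pdcd1lg2, had an unadjusted p under 0.05.

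Between melanophages and macrophages, averaged over MHC-II class, 0 of the 9 genes were called in limma, where 0.12% of all genes were. At an unadjusted p under 0.05 there were 2, Pdcd1lg2 (-0.65 ± 0.18, adjusted p = 0.351) and Icosl (-0.45 ± 0.16, adjusted p = 0.532), against 7.52% of all genes. The median difference of the 9 genes was -0.04, against 0.01 over all genes. In MHC-II-negative cells 0 were called (0.00502% of all genes) and 0 had an unadjusted p under 0.05 in limma (5.65% of all genes). In MHC-II-positive cells 0 were called (0.015% of all genes) and 3 had an unadjusted p under 0.05 (6.30% of all genes): Pdcd1lg2 and Icosl, both lower in melanophages, and Tnfsf4, under the off level. Other intervals remained wide: that of Cd80 in MHC-II-negative cells ran from -0.13 to 1.06 and that of Havcr2 in MHC-II-positive cells from -1.02 to 0.35.

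Ordered by group mean, both MHC-II-positive groups stood above both MHC-II-negative groups for Cd40, Cd80, Cd274, Pdcd1lg2, Tnfsf9 and Havcr2. For Cd40 the step between neighbours without overlap lay between MHC-II-positive melanophages and MHC-II-negative macrophages. For Pdcd1lg2 it lay between MHC-II-positive macrophages and MHC-II-positive melanophages, and for Tnfsf9 between MHC-II-positive melanophages and MHC-II-positive macrophages. In Cd80, Cd86, Cd274 and Havcr2 every pair of neighbouring groups overlapped.

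Across the 12 arrays Cd40 and Cd274 moved together (r = 0.855, and 0.704 after taking out the group means), as did Pdcd1lg2 and Havcr2 (r = 0.817, and 0.854 within groups). Cd274 and Pdcd1lg2, whose genes are neighbours, did so less closely (r = 0.361, and -0.188 within groups). These are descriptions over 12 arrays of 4 groups, in which genes measured on 1 array share its RNA and labelling. Among 9419 genes with a mean above the off level, the 3 whose pattern was most like that of Cd40 were Cd209e, a C-type lectin (r = 0.966), Nlrp3, the sensor of an inflammasome (r = 0.962), and Cd74, the MHC-II invariant chain (r = 0.941). For Pdcd1lg2 they were Axl, a receptor kinase for apoptotic cells (r = 0.922), Isy1 (r = 0.913) and Rab20 (r = 0.902). For Cd274 they were Appl1, Acod1 and Dhx9 (r from 0.886 to 0.856), and for Tnfsf9 they were Samd8, Dynlt3 and Clec4b1 (r from 0.926 to 0.862). Cd80 was matched best by Ctsz, Lcp2 and Hyou1 (r from 0.872 to 0.866), Cd86 by Eif4e, Vamp4 and Pdcl (r from 0.867 to 0.853), and Havcr2 by Dtx2, Mtpn and Hmx1 (r from 0.881 to 0.844).

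The signalling genes around CD40 were represented by a list of TRAF adaptors and NF-kB subunits and regulators. Averaged over cell kind, 1 of the 18 measured was called higher in MHC-II-positive cells and 0 were called lower. All 18 differences were positive, with a median of 0.37 against -0.02 over all genes. For this list and those below, the share of all genes called between the MHC-II classes, averaged over cell kind, was 0.762%. The called gene was Traf1, a TRAF adaptor of TNF receptor family members. MHC-II-positive melanophages had Traf1 values of 4.17, 3.93 and 3.95, compared with 3.31, 3.15 and 2.94 in MHC-II-negative melanophages. In macrophages the Traf1 values were 4.63, 4.72 and 4.49 in MHC-II-positive cells, against 3.08, 3.29 and 3.04 in MHC-II-negative cells. Like Cd40, Traf1 separated the classes in both cell kinds, and its MHC-II-negative arrays lay near the off level. The difference was 0.89 ± 0.12 within melanophages (limma adjusted p = 0.012) and 1.48 ± 0.12 within macrophages (0.000555). The call within melanophages was lost without MHC-II-positive melanophage replicate 2 (limma adjusted p = 0.0532), without MHC-II-negative melanophage replicate 3 (0.0553) and with the 2 groups fitted alone (0.0886).

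Genes of the interferon-gamma and JAK-STAT pathway, which induces PD-L1 in many cells, numbered 15. Averaged over cell kind, 1 was called higher, 0 were called lower and 13 differences were positive, with a median of 0.24. The called gene was Jak2, a kinase that acts at the interferon-gamma receptor. It averaged 5.57 ± 0.41 in MHC-II-positive and 4.63 ± 0.17 in MHC-II-negative melanophages, and 5.67 ± 0.20 in MHC-II-positive and 5.14 ± 0.16 in MHC-II-negative macrophages (SD, n = 3 each). Its averaged difference was 0.74 ± 0.14 (limma adjusted p = 0.0371), a call that was kept in 14 of 26 alternatives, with adjusted p up to 0.0967.

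**Figure D3:**
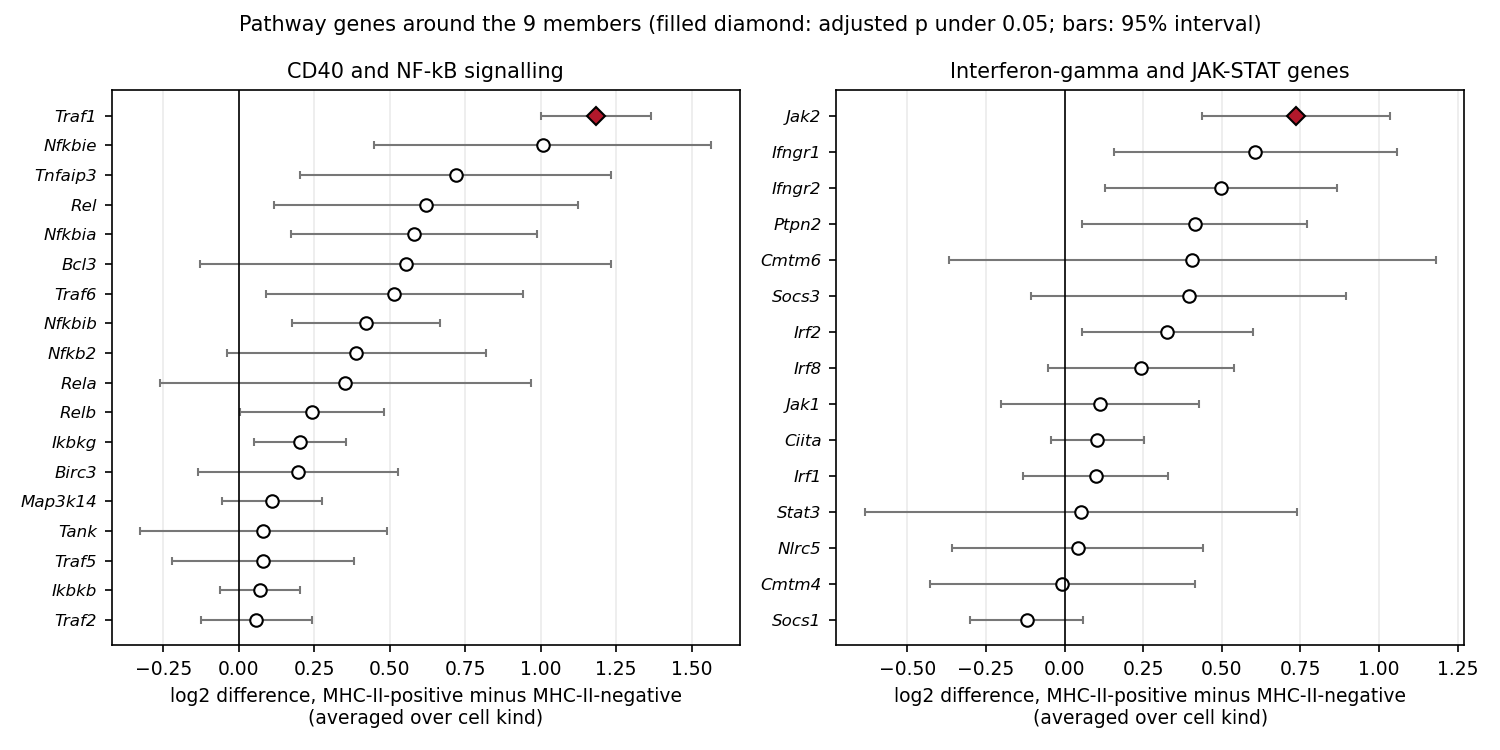
MHC-II-positive minus MHC-II-negative log2 differences, averaged over cell kind, of the 18 genes of the CD40 and NF-kB list and the 15 genes of the interferon-gamma and JAK-STAT list; bars are 95% intervals of the limma fit and filled diamonds have an adjusted p under 0.05. Traf1 (1.18) and Jak2 (0.74) are the filled diamonds, and all 18 points of the CD40 list lie right of 0.

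Of 11 receptors and partners of the 9 proteins, 0 were called higher and 1 was called lower in MHC-II-positive cells. It was Rgmb, which encodes a binding partner of PD-L2. Rgmb averaged 3.40 ± 0.17 in MHC-II-positive and 3.95 ± 0.13 in MHC-II-negative melanophages, and 3.40 ± 0.13 in MHC-II-positive and 3.95 ± 0.12 in MHC-II-negative macrophages (SD, n = 3 each). The difference was -0.55 ± 0.08 (limma adjusted p = 0.00926), a 1.46-fold lower value. Between the cell kinds 0 of the 11 were called, and the smallest adjusted p was that of Cd28, the receptor of CD80 and CD86 (0.62 ± 0.11 in melanophages minus macrophages, limma adjusted p = 0.0772, with 2 of the 11 at an unadjusted p under 0.05, against 7.52% of all genes).

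Other ligands of both families were not called in any of these comparisons. Of 20 other B7 family and immunoglobulin checkpoint genes 0 were called between the MHC-II classes in limma, 6 had an unadjusted p under 0.05, against 9.23% of all genes, and the smallest adjusted p was that of Slamf7 (0.40 ± 0.10, adjusted p = 0.160). Of 12 other TNF superfamily ligands 0 were called in limma, 3 had an unadjusted p under 0.05, against the same 9.23%, and the smallest adjusted p was that of Tnfsf14 (0.24 ± 0.07, adjusted p = 0.181). The median differences of these lists were 0.05 and 0.02, against 0.64 for the 9 genes and -0.02 over all genes. Because the 9 genes and the lists were chosen with earlier results known, these medians are a description and not a test.

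Dendritic cells carry many of the same co-stimulatory proteins. Of 15 dendritic cell markers measured, 4 were called higher in MHC-II-positive cells in limma and 0 lower: Ccr7 (1.97 ± 0.27), Mgl2 (1.33 ± 0.26), Itgax (1.26 ± 0.11) and Cd207 (1.20 ± 0.15), with adjusted p between 0.000379 and 0.0466. The summed linear level of the 15 ranged from 1667 to 2053 in MHC-II-positive and from 894.5 to 1320 in MHC-II-negative melanophages, and from 1826 to 2852 in MHC-II-positive and from 1011 to 1583 in MHC-II-negative macrophages. Of the same list Itgae, Xcr1, Clec9a and Epcam were above the off level on 0 of 12 arrays. Cd207, which encodes langerin, and Itgax, which encodes CD11c, had their highest group mean in MHC-II-positive macrophages. Cd207 averaged 3.17 ± 0.22 in MHC-II-positive and 2.81 ± 0.13 in MHC-II-negative melanophages, and 5.17 ± 0.48 in MHC-II-positive and 3.13 ± 0.18 in MHC-II-negative macrophages (SD, n = 3 each). Itgax averaged 4.03 ± 0.19 in MHC-II-positive and 3.41 ± 0.12 in MHC-II-negative melanophages, without overlap, and 5.47 ± 0.34 in MHC-II-positive and 3.56 ± 0.14 in MHC-II-negative macrophages (SD, n = 3 each). MHC-II-positive melanophages were called lower than MHC-II-positive macrophages in Cd207 (limma adjusted p = 0.0192) and in Itgax (-1.44 ± 0.16, limma adjusted p = 0.0229). These calls were kept in 16 and 18 of 27 alternatives, with adjusted p up to 0.31. The call of Mgl2 between the MHC-II classes, averaged over cell kind, was kept in 9 of 26.

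Of 18 genes of dendritic cell maturation, 3 were called higher in MHC-II-positive cells in limma and 0 lower. These were the chemokines Ccl17 (5.26 ± 0.40, adjusted p = 0.000111) and Ccl22 (2.19 ± 0.14, adjusted p = 4e-05) and the migration receptor Ccr7 (adjusted p = 0.00645), which is also on the marker list. Ccr7 averaged 6.24 ± 0.79 in MHC-II-positive and 4.42 ± 0.09 in MHC-II-negative melanophages, and 6.60 ± 0.45 in MHC-II-positive and 4.48 ± 0.53 in MHC-II-negative macrophages (SD, n = 3 each). The part of dendritic cell, monocyte, T cell, innate lymphoid cell, mast cell or other cell content in the differences of Cd40, Pdcd1lg2 and the other 7 genes was not tested.

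**Figure D4:**
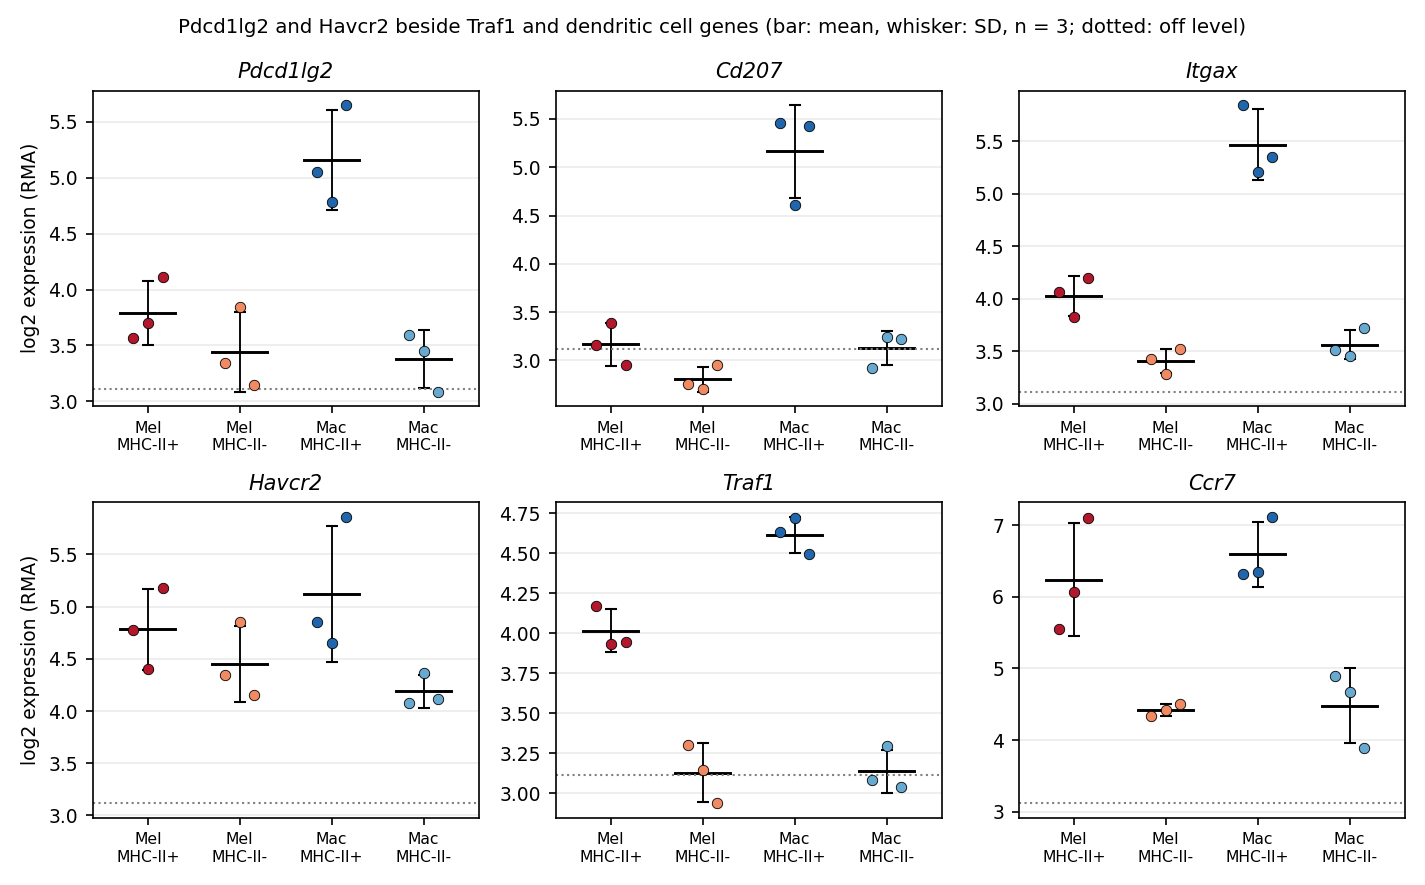
Log2 expression of Pdcd1lg2 and Havcr2 beside Traf1 and the dendritic cell genes Cd207, Itgax and Ccr7 on each array; points are arrays, bars are group means, whiskers are SDs (n = 3) and the dotted line is the off level of 3.12. In Pdcd1lg2, Cd207 and Itgax the 3 MHC-II-positive macrophage arrays stand above the other 9, while Ccr7 and Traf1 stand high in both MHC-II-positive groups; the axis range differs between panels.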

How the data were processed

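Per the labels' protocols, 3 to 20 ng of RNA from sorted cells was amplified with NuGEN Ovation Pico WTA V2 and biotinylated. The deposited table holds log2 values; per the submitters' processing notes the authors used RMA and oligo. Their versions, settings and genome build were not given in the sources used here. Of 35556 probe sets, 21789 carry 1 gene symbol, 1621 several and 12146 none, and only those with 1 symbol were used. The brightest probe set per gene was kept. Near the off level background understates a fold.

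All 12 arrays were fitted in R 4.3.3 with limma 3.58.1 (lmFit and eBayes, a mean per group, 8 residual and 2.44 prior degrees of freedom) for 7 comparisons, two-sided, and the fit was tested on simulated data. The depth of an array is not counted, and the number of arrays limits the precision. Array medians lay between 2.97 and 3.08, and 0 of 66 array pairs were identical. Named were all 9 genes and the 3 most alike by correlation. A rule took genes from the other 18 lists (up to 4 called by size per comparison, else the smallest adjusted p). Not all genes that this rule took are named in the text. The 9 genes and all lists (188 of 205 entries matched) were chosen with earlier results of these data known. Alternatives were 27 settings of filters, normalization, probe choice, weights, blocks and left-out arrays.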

Additional observations from a re-analysis of the deposited data

How the results depend on the processing

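Of 27 alternatives, 26 were planned and 1, leaving out both far macrophage arrays, was chosen after seeing the data. The higher Cd40 value of MHC-II-positive cells, averaged over cell kind, passed in all 26 alternatives that gave it (0.84 to 1.07, adjusted p 0.00272 to 0.0329), whereas that of Pdcd1lg2 kept its direction (0.94 to 1.16) but passed in 19. Of the 9 genes, the number called between the MHC-II classes, averaged over cell kind, was 3 with the mean of all probe sets (Cd80 added), 1 with the replicate block and between 1 and 2 with 1 array left out, against 2. Within melanophages it was 1, which was Cd40, after another quantile normalization, with array weights, with the 2 groups alone and without both far arrays, and between 0 and 1 with 1 array left out, against 0. Within macrophages it was 0 with the 2 groups alone and between 0 and 1 with 1 array left out, against 1. Melanophages over macrophages, averaged over MHC-II class, had 1 called gene, Icosl, without both far arrays, against 0. The cause of these changes was not tested, beyond the fewer arrays in the fits that left arrays or groups out.

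Of 63 differences (9 genes in 7 comparisons), 19 changed sign in some alternative. None of these was called, and the largest was 0.335 in size. In the text these were 3. Cd86 between the MHC-II classes was -0.0416 after another quantile normalization, -0.00188 after cyclic loess, -0.10 without both far arrays and -0.12 to 0.15 with 1 array left out. For MHC-II-positive melanophages over MHC-II-positive macrophages, Havcr2 was 0.0355 without both far arrays and -0.57 to 0.0355 with 1 array left out, and Cd274 was -0.0814 to 0.47.

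Over all genes, the calls between the MHC-II classes ranged from 96 to 215 (152 as reported), from 19 to 63 within melanophages (42) and from 27 to 101 within macrophages (68). Melanophages over macrophages gave 1 to 117 (24) averaged, 0 to 12 (1) in MHC-II-negative and 0 to 34 (3) in MHC-II-positive cells, and the interaction 0 to 3 (0). Code numbers in the sample titles fall into 3 runs, each with 1 array per group, which served as replicate numbers. Deviations from the group means of same-run arrays correlated between -0.248 and 0.27, over 0.1 in 5 of 18 pairs. Between arrays of other runs, 11 of 36 pairs were over 0.1, and 5 of 12 arrays correlated best with their own run. No pairing by run was seen, but with 3 arrays per group these correlations cannot exclude one. With the run as a replicate block Cd40 stayed called, and Pdcd1lg2 averaged over cell kind had a limma adjusted p of 0.0603.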
